A study of Danio rerio with 12 samples.

Results

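The genes described here encode components of the PI3K, AKT and mTOR signalling pathway in zebrafish liver. They were chosen by symbol, with earlier results of these data known. The choice took every gene whose symbol starts with the names of families such as the PI3K subunits, AKT, the S6 kinases, the sestrins, the RAG GTPases, the IRS adaptors, the FOXO factors or the SGK kinases, and 30 further components listed by name. The table of 14581 genes held 49 of them. Of these, 40 reached 1 FPKM (fragments scaled to transcript length and to all mapped fragments) in at least 3 of the 12 libraries and were tested together with the other genes that did so, 9190 in all. Another 10 genes of the list had no row under the listed symbol (rptor, rictora, rictorb, akt1s1, tsc2, rhebl1, gsk3a, ulk1b, castor2 and depdc5) and are not analysed among the components. Of the families, the IRS adaptors and the PI3K catalytic subunits pik3ca and pik3cb also had no row under their symbols.

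In this pathway, insulin and insulin-like growth factors bind receptor tyrosine kinases, which recruit PI3K, a pair of a catalytic and a regulatory subunit, to make the membrane lipid PIP3. PIP3 draws the kinases PDPK1 and AKT to the membrane. AKT inhibits FOXO transcription factors, GSK3 and the TSC complex. TSC in turn holds back RHEB, the small GTPase that switches on the kinase complex mTORC1 on lysosomes, where RAG GTPases report amino acids. mTORC1 drives protein synthesis through S6 kinase and the 4E-BP proteins and restrains autophagy through ULK1. Sestrins, DDIT4 and DEPTOR hold mTOR back, the first of these under amino acid shortage and stress. In liver the pathway is known for linking feeding to growth, glycogen and lipid synthesis. Most of this control acts on protein activity, which transcript levels do not measure.

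Livers came from wild-type adult zebrafish of both sexes. From an age of 3 months the fish received DMSO (the solvent) or β-estradiol every day over 6 weeks, and they were housed 1 to a tank so that feeding was controlled. There were 4 groups of 3 libraries: males given DMSO, males given estradiol, females given DMSO and females given estradiol. Whether libraries of a group stem from different fish is not stated, so p-values measure the spread between libraries, which may be technical. DMSO libraries are numbered 7 to 12 and estradiol libraries 19 to 24, so treatment and any difference in library preparation or run cannot be told apart. The study's title is about the membrane estrogen receptor GPER1, PI3K/mTOR and how growth and cancer of the liver differ by sex. The comparisons ask which pathway transcripts differed with estradiol in each sex, and which differed between the sexes.

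Transcripts of other tissues moved with the groups. Hepatocyte markers (11 of 13 listed had a row) summed to 96742 to 114885 FPKM in DMSO males, 12932 to 70588 in estradiol males, 48732 to 66170 in DMSO females and 17773 to 30284 in estradiol females, without overlap between treatments in either sex. A single gene weighs on this sum: fabp10a held 68625 of 103255 FPKM in male DMSO replicate 1. The mean log2 level of the same markers overlapped between treatments in both sexes. It was 10.5 to 10.7 in DMSO males and 8.64 to 11.6 in estradiol males. In females it was 9.61 to 9.95 under DMSO and 9.54 to 10.1 under estradiol. This mean counts the transferrin gene tfa, listed at 0 in every DMSO library and at 2076 to 16527 FPKM under estradiol. Those zeros lower the DMSO means, so this overlap does not show equal hepatocyte levels. Taken without tfa, the mean was lower under estradiol than under DMSO in each sex, without overlap. By limma 1 of the 11 hepatocyte markers rose and 2 fell in males, and 1 rose and 1 fell in females. Oocyte markers (13 of 14 listed had a row, and figla and h1m were listed at 0 throughout) summed to 0.122 to 1.91 FPKM in DMSO males, 47.6 to 3180 in estradiol males, 8.42 to 208 in DMSO females and 0.377 to 4196 in estradiol females. Estradiol replicates 1 and 3 of each sex were the oocyte-rich ones, with sums of 3180 and 1415 in males and 4196 and 693 in females, against 47.6 and 0.377 in the replicates numbered 2. Exocrine pancreas markers (13 of 18) summed to 2116 to 9704 FPKM in the DMSO libraries and 95.8 to 561 in the estradiol libraries. Intestine markers (11 of 15) summed to 1297 and 1454 FPKM in female DMSO replicates 1 and 2 and to at most 208 elsewhere. The mean log2 level of leukocyte markers ran from 0.85 to 1.85, of red blood cell markers from 1.94 to 4.51, of biliary markers from 4.24 to 6.45, of endothelial markers from 0.32 to 2.31 and of stellate markers from 1.02 to 2.07. Red blood cell markers were lower in estradiol males (3.05 to 3.53) than in DMSO males (4.27 to 4.51). In females endothelial markers stood at 1.52 to 2.04 under DMSO and 0.32 to 1.36 under estradiol, and stellate markers at 1.34 to 1.85 and 1.02 to 1.13. The part of the hepatocyte, red blood cell, endothelial and stellate levels in the results was not tested. The receptor of the title, gper1, stood at 0 to 0.0490 FPKM, below the filter. The nuclear estrogen receptor gene esr1 ran from 0.785 to 1.35 FPKM in DMSO males and from 4.40 to 36.4 in estradiol males, with 36.4 in replicate 2. In females it stood at 88.5, 37.0 and 65.5 FPKM under DMSO and at 10.3, 13.3 and 11.9 under estradiol. Some abundant liver genes are listed at exactly 0 in whole groups, such as the transferrin gene tfa in all DMSO libraries, so an exact 0 may be a failed estimate. The yolk protein gene vtg1, known to be induced by estrogen, was also listed at 0 in every female and every estradiol library, and at 310.3, 41.1 and 35.0 FPKM in DMSO males, which goes against the labels if the zeros are real. Libraries summed to between 304905 and 1217100 FPKM, and the sequencing depth is unknown.

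The pathway's transcripts were mostly low. Of the 40 tested components 23 reached 1 FPKM in all 12 libraries, 9 had a median of 10 FPKM or more and 5 a median below 1. On this length-scaled measure the highest medians were those of the kinase genes sgk1 (215 FPKM) and akt2l (150 FPKM), followed by the stress-induced inhibitor ddit4 (61.8), the regulatory subunit gene pik3r1 (29.1) and deptor (27.0). The core kinase mtor stood near 3 FPKM, from 1.92 to 4.50, in every library. The AKT, PI3K regulatory subunit and SGK families were each carried mainly by 1 gene. akt2l made up 85.3 to 98.5% of the summed FPKM of the tested and untested AKT genes, pik3r1 57.2 to 92.3% of that of the PI3K regulatory subunit genes, and sgk1 76.6 to 96.5% of that of the SGK genes. Within groups, the rank correlation of the 40 levels between libraries was 0.892 to 0.927 in DMSO males and 0.860 to 0.899 in DMSO females, against 0.615 to 0.768 in estradiol males and 0.575 to 0.890 in estradiol females. Over all genes it was lower under estradiol as well. There it was 0.945 to 0.955 in DMSO males and 0.775 to 0.929 in estradiol males. In females it was 0.910 to 0.938 under DMSO and 0.790 to 0.905 under estradiol, so the drop is not particular to the pathway. Among DMSO males replicate 1 was the highest library for 31 of the 40 components (49.01% of all genes). Among estradiol females replicate 3 was the highest for 21 (27.42%) and replicate 1 for 10 (51.68%). The causes were not tested. In bulk liver RNA, fewer cells of a type and less RNA per cell cannot be told apart.

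**Figure D1:**
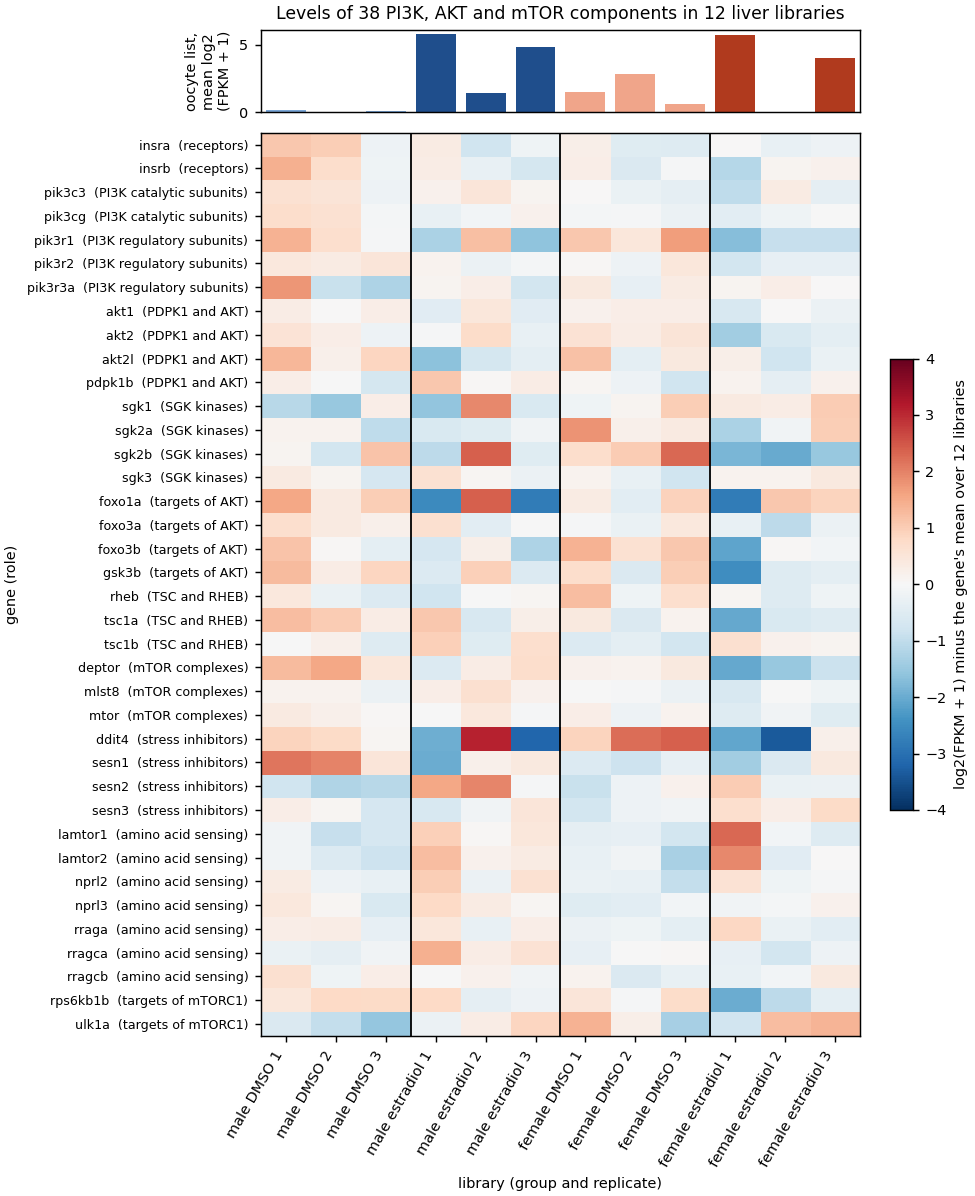
Levels of 38 of the 40 tested components in the 12 liver libraries: colours give log2(FPKM + 1) minus the gene's mean over all libraries, rows are genes with their role, columns are libraries and black lines part the groups, while the bars on top give the mean log2(FPKM + 1) of the oocyte markers. ddit4 and foxo1a spread most within estradiol males, by 6.25 and 5.18 on the log2 scale, with replicate 2 the highest for both.

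Few pathway transcripts changed with estradiol past the test's threshold (limma on log2(FPKM + 1), Benjamini-Hochberg adjusted p under 0.05 over all 9190 genes). In males sesn2 rose. With the effect averaged over both sexes, deptor and pik3r1 were among the genes that fell, and sesn2 rose. In males that is 1 rise and 0 falls among 40 genes, where 3.79% of all genes tested changed (0.881% rose and 2.91% fell), and 4 components had an unadjusted p under 0.05. In females limma called 0 rises and 0 falls, where 2.73% of all genes changed (0.49% rose and 2.24% fell), and 11 components had an unadjusted p under 0.05. For the averaged effect there were 1 rise and 3 falls, where 11.7% of all genes changed (4.5% rose and 7.23% fell), and the unadjusted p of 16 components was under 0.05. The share of components called lies near or below these backgrounds, so the counts do not set the pathway apart from other genes. Counts of unadjusted p under 0.05, here and below, are given without the share over all genes, so nothing about the pathway is read from them. The averaged effect is the mean of the 2 sex-specific effects and is not independent of them.

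The median log2 change of the 40 components was -0.10 in males (0.21 over all genes), -0.17 in females (-0.08) and -0.32 averaged (0.05). A positive change was seen for 17 of 40 components in males (59.4% of all genes), 17 in females (45.7%) and 17 averaged (52.8%). The signs of the medians in males and females depended on the scaling between libraries. With each library scaled to its sum without its 10 highest genes, a choice made after the data were seen, the medians of the components became 0.24, 0.15 and -0.05, and those of all genes 0.55, 0.20 and 0.36. Quantile normalization gave -0.47, -0.13 and -0.49 for the components and -0.05, 0.01 and -0.03 for all genes. Under these 3 scalings the components' median was lower than that of all genes in each comparison. In females it was higher with the oocyte level as a covariate (-0.07 against -0.14), without the oocyte-rich libraries (-0.21 against -0.32) and without female estradiol replicate 1 (-0.03 against -0.17). In males it was close to that of all genes with the oocyte covariate (0.0172 against 0.0177) and without the oocyte-rich libraries (0.153 against 0.161). For the averaged effect it stayed lower in these settings (-0.22 against -0.06 and -0.24 against -0.08). Without the oocyte-rich libraries the medians are those of the 37 components that still passed the filter.

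**Figure D2:**
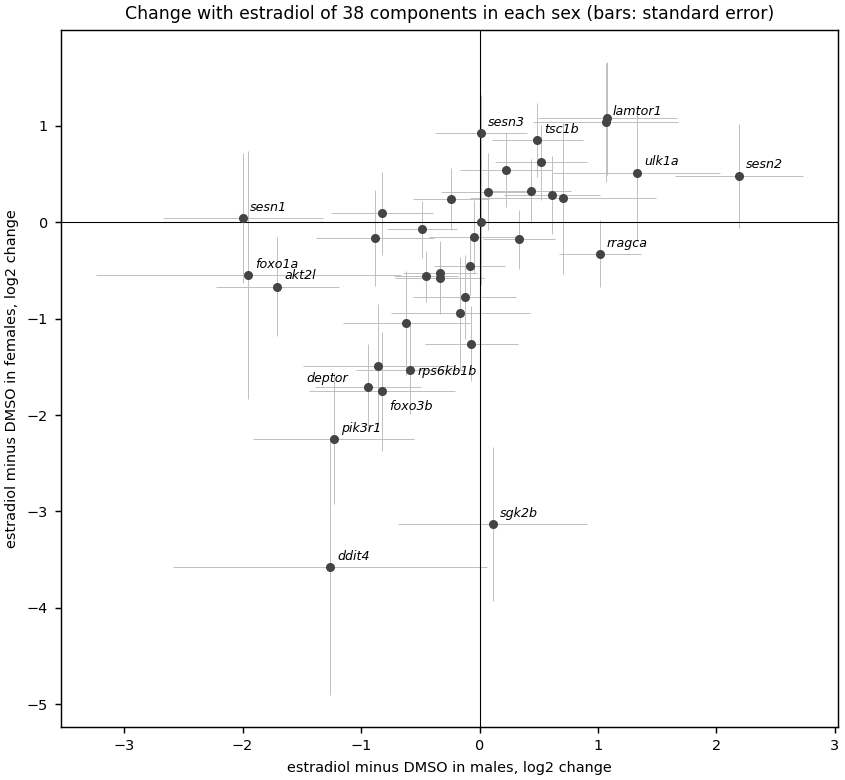
Log2 change with estradiol of 38 of the 40 components in males (horizontal axis) and females (vertical axis), with standard errors as bars; the sexes share no library. sesn2 lies farthest to the right (2.19 in males, 0.48 in females), and ddit4, sgk2b and pik3r1 lie lowest (-3.58, -3.13 and -2.25 in females).

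Insulin receptors were low and none passed the test. The insulin receptor gene insra stood at 9.23, 8.49 and 3.15 FPKM in male DMSO replicates 1 to 3, at 5.03, 1.78 and 3.30 in estradiol males, at 4.68, 2.46 and 2.39 in DMSO females and at 3.87, 2.94 and 3.23 in estradiol females. Male DMSO replicates 1 and 2 were the highest libraries, and the third overlapped the other groups. Its partner insrb ran from 0.467 FPKM in female estradiol replicate 1 to 7.69 in male DMSO replicate 1. The receptors for insulin-like growth factors were below the filter: igf1ra reached at most 0.459 FPKM, and igf1rb reached 2.15 in male estradiol replicate 1, an oocyte-rich library, and at most 0.477 elsewhere.

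Among the PI3K genes, the regulatory subunit pik3r1 changed. The catalytic subunit genes tested, pik3c3 and pik3cg, did not pass the test. Other catalytic subunits were below the filter (pik3cd) or had no row under their symbol (pik3ca and pik3cb), so they were not tested. pik3r1, which encodes the p85 alpha subunit that stabilises the catalytic partner, stood at 66.2, 39.4 and 23.8 FPKM in DMSO males and at 9.53, 58.1 and 7.36 in estradiol males. In females it stood at 53.0, 34.4 and 79.8 under DMSO and at 6.90, 12.6 and 12.5 under estradiol. The female groups did not overlap, whereas male estradiol replicate 2 lay within the range of DMSO males. Averaged over the sexes pik3r1 fell by 1.74 on the log2 scale (SE 0.48, limma adjusted p = 0.0384). The change was -1.23 in males (adjusted p = 0.263) and -2.25 in females (0.102), and the sexes' difference had an adjusted p of 0.754.

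The fall of pik3r1 kept its call in few of the alternatives. With the oocyte level as a covariate the averaged change was -0.82 (limma adjusted p = 0.454). That level itself went with treatment in males, at 0.0132 to 0.183 under DMSO and 1.44 to 5.78 under estradiol (mean log2). In females it overlapped, at 0.589 to 2.80 and 0.0355 to 5.75. Such a fit, here and elsewhere, therefore cannot fully tell the oocyte level and treatment apart. Leaving out the 4 oocyte-rich libraries it was -0.72 (0.352), with 1 library left in each estradiol group, whose spread is assumed to be that of the other groups. Without male DMSO replicate 1, 2 or 3 the adjusted p was 0.103, 0.0824 and 0.0509, without male estradiol replicate 1 or 3 it was 0.0836 and 0.0833, without female DMSO replicate 1 or 3 it was 0.0844 and 0.0909, while without female estradiol replicate 1 or 3 it was 0.0721 and 0.0597. The log2 change stayed negative in all 22 alternatives, and 6 of them kept the call.

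The other PI3K genes had lower levels. pik3r2, another regulatory subunit, stood at 1.19, 1.05 and 1.30 FPKM in DMSO males, 0.834, 0.418 and 0.562 in estradiol males, 0.697, 0.450 and 1.28 in DMSO females and 0, 0.329 and 0.314 in estradiol females. It was the only component whose estradiol libraries lay below the DMSO libraries of the same sex without overlap in both sexes, which held for 5.18% of all genes tested, and 0 components lay above in both (2.64% of all genes). Its averaged log2 change of -0.51 did not pass the test (adjusted p = 0.0918). The exact 0 of pik3r2 in female estradiol replicate 1 may be a failed estimate. pik3r3a was led by 1 library, male DMSO replicate 1 at 16.9 FPKM, with 1.22 to 5.84 elsewhere. The catalytic subunit gene pik3cg, of the immune-cell form of PI3K, ran from 0.532 to 2.34 FPKM. pik3c3, whose lipid product serves autophagy and endosomes, ran from 0.833 to 4.62 FPKM.

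**Figure D3:**
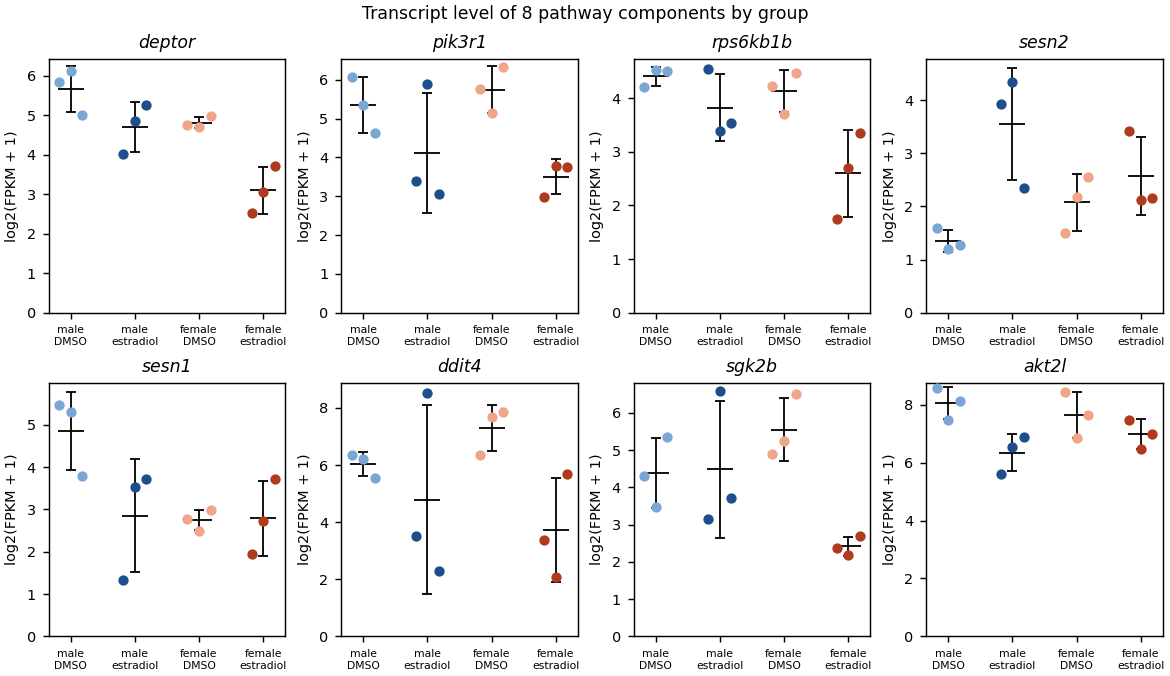
Level of 8 components as log2(FPKM + 1) by group, with a point per library, a line at the mean of 3 libraries and bars of 1 SD. deptor, pik3r1 and rps6kb1b lie lowest in estradiol females, sesn2 is low in DMSO males (1.28 to 2.02 FPKM), and estradiol males span the widest range for ddit4 (3.87 to 369 FPKM).

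AKT kinases and their partner PDPK1 showed 0 calls in either sex by limma, with 1 unadjusted p under 0.05 in each. akt2l, by far the most abundant AKT gene, stood at 379.9, 175 and 278 FPKM in DMSO males, 48.2, 92.1 and 116 in estradiol males, 345, 116 and 199 in DMSO females and 179, 87.4 and 126 in estradiol females. The male groups did not overlap, the female groups did. The log2 change in males was -1.71 (SE 0.52, limma adjusted p = 0.0859) and passed the threshold in 2 of 23 alternatives. akt2, the paralog, stood at 6.31 to 11.4 FPKM in DMSO males, 5.92 to 13.0 in estradiol males, 9.29 to 11.6 in DMSO females and 2.22 to 5.42 in estradiol females, so that the female estradiol libraries were the lowest 3 of the 12. akt1 ran from 0.126 to 1.40 FPKM. pdpk1b ran from 2.98 to 13.5 FPKM, highest in male estradiol replicate 1.

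Of the 4 genes for SGK kinases, relatives of AKT activated by PDPK1 and mTORC2, limma called 0 in either sex, with 0 unadjusted p under 0.05 in males and 1, that of sgk2b, in females. sgk1, a gene induced by glucocorticoids and osmotic stress, stood at 85.7, 64.3 and 226 FPKM in DMSO males, 62.2, 712 and 122.7 in estradiol males, 165, 203 and 369 in DMSO females and 239.9, 228 and 379 in estradiol females. The groups overlapped in both sexes. sgk2b stood at 18.9, 10.1 and 39.6 FPKM in DMSO males, 7.91, 95.3 and 12.1 in estradiol males, 29.0, 36.7 and 89.9 in DMSO females and 4.18, 3.53 and 5.45 in estradiol females. Here the 3 female estradiol libraries were the lowest of all 12, and male estradiol replicate 2 was the highest. The change in females was -3.13 (SE 0.80, limma adjusted p = 0.0616), against 0.11 in males, and the sexes' difference of -3.25 had an adjusted p of 0.340. Leaving out the 4 oocyte-rich libraries that difference was -5.58 (0.0369) with 1 library per estradiol group. sgk2a ran from 0.143 to 8.67 FPKM and sgk3 from 1.84 to 6.51 FPKM.

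Of the 4 targets of AKT limma called 0 in either sex and 0 for the averaged effect, with 2 unadjusted p under 0.05 for the latter. foxo1a, a FOXO factor that drives glucose production in fasting liver, stood at 19.4, 7.81 and 12.8 FPKM in DMSO males and 7.77, 4.15 and 12.3 in DMSO females. Under estradiol it stood at 0.177, 35.3 and 0 in males and at 0, 13.8 and 11.9 in females. It was thus at or near 0 in 3 of the 4 oocyte-rich libraries, highest of all in male estradiol replicate 2, and its groups overlapped. The exact zeros of foxo1a may be failed estimates. gsk3b, the kinase that restrains glycogen synthesis, stood at 6.12 to 12.8 FPKM in DMSO males, 2.96, 10.2 and 2.94 in estradiol males, 2.82 to 10.3 in DMSO females and 0.0380, 3.02 and 3.38 in estradiol females. Only female estradiol replicate 1 was close to 0, and the groups overlapped. foxo3b stood at 5.5 to 17.8 FPKM in DMSO males, 2.65 to 9.08 in estradiol males, 12.2 to 21.3 in DMSO females and 0.983 to 7.81 in estradiol females. The female groups of foxo3b did not overlap, and its paralog foxo3a ran from 0.770 to 4.87 FPKM.

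TSC1, the scaffold of the complex that inhibits RHEB, has a pair of genes in zebrafish. tsc1a stood at 4.32 to 9.34 FPKM in DMSO males, 1.82 to 8.20 in estradiol males, 1.91 to 4.67 in DMSO females and 0.0470, 1.84 and 2.08 in estradiol females. tsc1b stood at 0.376 to 1.27, 0.408 to 2.80, 0.192 to 0.515 and 1.12 to 2.06 FPKM in the same order. Female estradiol lay above DMSO females for tsc1b without overlap, and overlapped it for tsc1a. rheb, the GTPase downstream, ran from 6.09 to 27.7 FPKM with overlapping groups. None of the 3 passed the test.

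**Figure D4:**
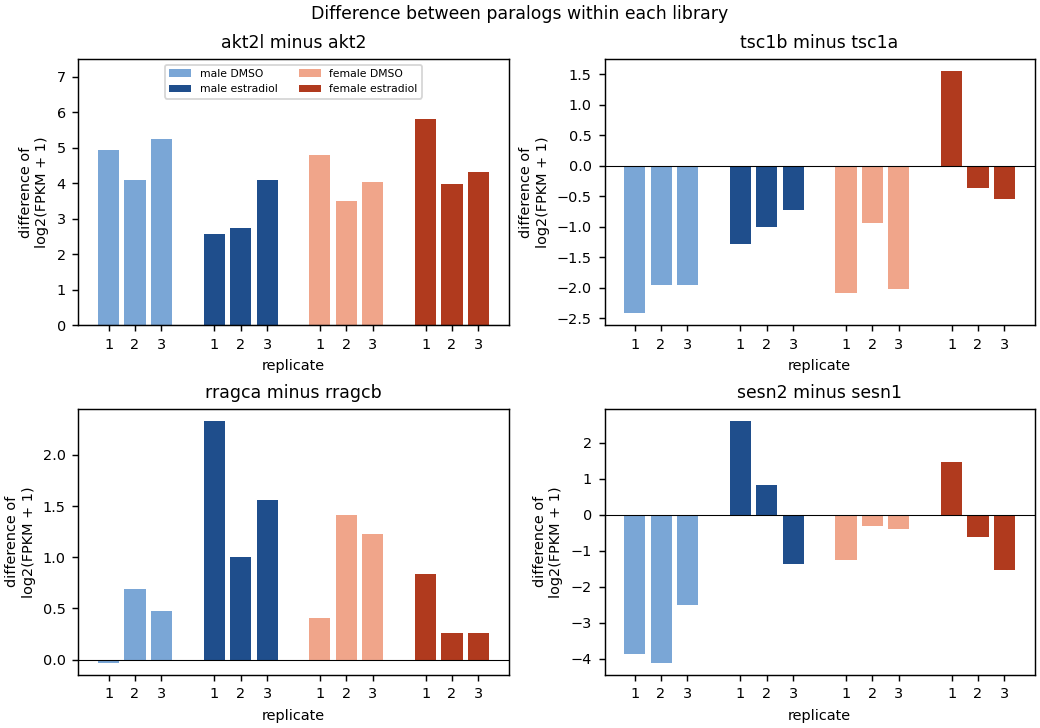
Difference of log2(FPKM + 1) between paralogs within each library, shown for 4 pairs by replicate and group. tsc1b minus tsc1a was higher under estradiol than under DMSO without overlap in both sexes, while for rragca minus rragcb and sesn2 minus sesn1 this held in males, where akt2l minus akt2 was lower under estradiol.

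The balance between paralogs differed between groups in some pairs. tsc1b minus tsc1a on the log2 scale was -2.41 to -1.95 in DMSO males and -1.28 to -0.73 in estradiol males, and -2.08 to -0.94 in DMSO females and -0.54 to 1.55 in estradiol females. Of the 8 pairs examined it was the only 1 without overlap in both sexes. akt2l minus akt2 was 4.10 to 5.26 in DMSO males and 2.58 to 4.08 in estradiol males. In females it was 4.78, 3.50 and 4.04 under DMSO and 5.80, 3.99 and 4.31 under estradiol, and these groups overlapped. These differences are descriptions, chosen after their values were seen, and carry no test.

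Within the mTOR complexes the inhibitor deptor fell, while mtor and mlst8 did not pass the test. deptor, whose protein binds and restrains mTOR, stood at 56.6, 68.5 and 31.3 FPKM in DMSO males, 15.3, 28.0 and 37.4 in estradiol males, 26.0, 25.0 and 30.4 in DMSO females and 4.75, 7.33 and 12.2 in estradiol females. The female groups did not overlap, and in males only estradiol replicate 3 lay above the lowest DMSO library. The averaged log2 change was -1.33 (SE 0.32, limma adjusted p = 0.0236), with -0.94 in males (0.198) and -1.71 in females (0.0683). The sexes' difference was -0.77 (adjusted p = 0.709). mtor stood at 3.24 to 4.29 FPKM in DMSO males, 2.98 to 4.50 in estradiol males, 2.63 to 3.97 in DMSO females and 1.92 to 2.77 in estradiol females. mlst8, the subunit shared by both mTOR complexes, ran from 1.5 to 5.05 FPKM.

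deptor kept its direction in all 22 alternatives and its call in 13. The adjusted p was 0.0671 and 0.0667 without male DMSO replicate 1 or 2 and 0.0572 and 0.0569 without female DMSO replicate 1 or 3. Its change was -1.11 with the oocyte level as a covariate (limma adjusted p = 0.192) and -1.28 leaving out the oocyte-rich libraries (0.0503). Without the 2 intestine-rich female DMSO libraries it was -1.41 (0.133), and after scaling to the sum without the 10 highest genes -0.94 (0.117). Pancreas markers fell too, 13 of 13 in males and 12 of 13 in females, and their part in the result was not tested.

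The stress-induced inhibitors of mTORC1 held the gene that rose, sesn2, and the most variable of the pathway, ddit4. sesn2, which senses leucine and is induced by the transcription factor ATF4, stood at 2.02, 1.28 and 1.43 FPKM in DMSO males, 14.3, 19.3 and 4.09 in estradiol males, 1.84, 3.51 and 4.90 in DMSO females and 9.63, 3.34 and 3.48 in estradiol females. The male groups did not overlap and the female groups did. The log2 change was 2.19 in males (SE 0.54, limma adjusted p = 0.0453), 0.48 in females (0.640) and 1.34 averaged (SE 0.38, 0.0436). The sexes' difference was -1.70 (SE 0.76, adjusted p = 0.454), so a difference between the sexes was not shown. Without the oocyte-rich libraries the male change was 2.99 (0.00796), with the single library replicate 2, and 2.11 with the oocyte level as a covariate (0.164).

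The sesn2 calls rested on most libraries. For the male call the adjusted p by limma was 0.139, 0.158 and 0.123 without male DMSO replicate 1, 2 or 3, 0.146 without male estradiol replicate 1, 0.0609, 0.0689 and 0.0592 without female DMSO replicate 1, 2 or 3, and 0.0603 without female estradiol replicate 3. For the averaged call it was 0.0875, 0.0982 and 0.0853 without male DMSO replicate 1, 2 or 3, 0.0882 without male estradiol replicate 1, 0.108, 0.0717 and 0.0613 without female DMSO replicate 1, 2 or 3, and 0.0760 and 0.0567 without female estradiol replicate 1 or 3. The male call held in 9 of 23 alternatives and the averaged call in 8 of 22, with a positive change in all of them.

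sesn1, a sestrin gene known as a target of p53 and FOXO, moved the other way in males without passing the test. It stood at 42.9, 38.5 and 12.9 FPKM in DMSO males, 1.51, 10.5 and 12.1 in estradiol males, 5.85, 4.65 and 6.86 in DMSO females and 2.83, 5.63 and 12.1 in estradiol females. Male DMSO lay above estradiol males and above DMSO females without overlap. The change in males was -2.0 (SE 0.68, limma adjusted p = 0.108), and females against males under DMSO gave -2.10 (SE 0.68, 0.230), 2 comparisons that share the male DMSO libraries. As a share of the summed FPKM of the 3 sestrin genes, sesn1 made up 81.7 to 89.6% in DMSO males and 8.70, 32.4 and 58.4% in male estradiol replicates 1 to 3, and sesn2 2.98 to 9.02% and 82.5, 59.6 and 19.7%. sesn3 ran from 1.39 to 5.78 FPKM.

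ddit4, the REDD1 gene that activates TSC under hypoxia, glucocorticoids and other stress, stood at 80.9, 73.6 and 45.8 FPKM in DMSO males and at 10.4, 369 and 3.87 in estradiol males. In females it stood at 81.3, 205 and 228 under DMSO and at 9.46, 3.27 and 49.96 under estradiol. Female estradiol lay below DMSO females without overlap, and estradiol males held both the highest value of the 12 libraries and 1 of the lowest. The change in females was -3.58 (SE 1.33, limma adjusted p = 0.163). Without the oocyte-rich libraries it was -5.20 (0.0101) in females and 2.49 (0.0464) in males, where all libraries gave -1.26, so the male direction turned on which estradiol libraries were kept. The statistics of ddit4, and those given for foxo1a, pik3r2, lamtor1, lamtor2 and the averaged effect on rps6kb1b, were added after their values were seen.

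Genes that signal amino acids to mTORC1 were low, and limma called 0 of 7 in either sex, with 1 unadjusted p under 0.05 in males and 0 in females. lamtor1 and lamtor2 belong to the Ragulator complex that anchors RAG GTPases on the lysosome. lamtor1 stood at 4.67, 2.27 and 2.88 FPKM in DMSO males, 11, 5.47 and 7.45 in estradiol males, 3.86, 3.92 and 2.75 in DMSO females and 29.8, 4.73 and 3.38 in estradiol females. lamtor2 stood at 12.6, 9.29 and 7.53, then 34.2, 15.9 and 18, then 11.2, 12.6 and 5.09, and 55.9, 9.94 and 14.3 FPKM in the same order. Both were higher in estradiol males than DMSO males without overlap and highest in the oocyte-rich female estradiol replicate 1. Their averaged changes were 1.05 and 1.08, and 0.30 and 0.19 with the oocyte level as a covariate. rragca, a RAG GTPase gene whose product pairs with that of rraga, stood at 1.94, 1.76 and 2.21 FPKM in DMSO males, 8.53, 3.32 and 4.22 in estradiol males, 1.83, 2.48 and 2.67 in DMSO females and 1.82, 1.13 and 2.05 in estradiol females. The male groups did not overlap (log2 change 1.02, SE 0.35, limma adjusted p = 0.111). The sexes' difference was -1.34 (SE 0.49, adjusted p = 0.369).

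The other 4 amino acid sensing genes did not pass the test. rragcb ran from 0.304 to 2.0 FPKM and rraga from 6.72 to 17.3 FPKM, highest in female estradiol replicate 1. nprl2 and nprl3, of the GATOR1 complex that inactivates RAG GTPases, ran from 0.159 to 3.51 and from 0.505 to 2.99 FPKM, both highest in male estradiol replicate 1.

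Of the targets of mTORC1, the S6 kinase gene rps6kb1b stood at 17.4, 21.9 and 21.6 FPKM in DMSO males, 22.3, 9.42 and 10.6 in estradiol males, 17.6, 11.9 and 21.1 in DMSO females and 2.34, 5.48 and 9.24 in estradiol females. The female groups did not overlap. The change in females was -1.53 (SE 0.46, limma adjusted p = 0.101), and its averaged change of -1.06 had an adjusted p of 0.0556. Without the oocyte-rich libraries the averaged change was -1.23 (adjusted p = 0.0339). ulk1a, of the kinase that starts autophagy, ran from 0.101 to 7.44 FPKM, with its highest and its second lowest value in DMSO females.

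Between the sexes limma called 0 of 40 components under DMSO, where 0.555% of all genes differed (0.239% higher and 0.316% lower in females), with 1 unadjusted p under 0.05, that of sesn1. Females lay above males without overlap for ddit4 and sgk2a (18.6% of all genes did) and below for deptor and sesn1 (12.2%). The difference was positive for 14 of 40 components (53.1% of all genes). Under estradiol it again called 0, where 0.109% of all genes differed (0.0762% higher and 0.0326% lower in females), with 6 unadjusted p under 0.05. The difference was then positive for 11 of 40 (32.8% of all genes). Female estradiol lay below estradiol males without overlap for 9 components (9.68% of all genes) and above for 0 (2.62%). Among the 9 were akt2, deptor, mlst8, mtor, pik3r2, rps6kb1b, rragca and sgk2b, and the smallest adjusted p was that of deptor (log2 difference -1.61, SE 0.45, 0.309). For the difference of the estradiol effect between the sexes limma called 0 components, where 0.261% of all genes passed (0.163% up and 0.0979% down), with 3 unadjusted p under 0.05 (sgk2b, rragca and sesn2). It was positive for 12 of 40 (35.6% of all genes).

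Within males, estradiol libraries were lower than DMSO without overlap for 3 components (11.4% of all genes) and higher for 6 (18.5%). The lower ones were akt2l, pik3r2 and sesn1, and the higher ones lamtor1, lamtor2, mlst8, rragca, sesn2 and ulk1a. Within females 10 were lower (18.8% of all genes) and 3 higher (9.98%). Among the lower ones were akt1, akt2, ddit4, deptor, foxo3b, pik3r1, pik3r2, rps6kb1b and sgk2b, and the higher ones were nprl2, sesn3 and tsc1b.

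Male estradiol replicate 2 differed from the other male estradiol libraries in oocyte markers and in some components. Among male estradiol libraries it was the highest for 16 of 40 components (41.28% of all genes), and replicate 1 was for 16 (45.14%). For the highest value of all 12 libraries the share over all genes is not given. Replicate 2 held that value for ddit4 (369 FPKM), sgk1 (712), sgk2b (95.3), foxo1a (35.3), akt1 (1.40), akt2 (13.0), mlst8 (5.05), mtor (4.50) and sesn2 (19.3). It also held the highest sum of biliary markers, 1844 FPKM against at most 727 elsewhere. Of that sum the single gene krt18 held 1327 FPKM. Taken without krt18, the sum lay below that of female DMSO replicate 2. The mean log2 level of hepatocyte markers in replicate 2, 11.6, was the highest of the 12 libraries. The hepatocyte sum of this library, 70588 FPKM, lay below those of DMSO males (96742 to 114885) and above those of DMSO females (48732 to 66170). Both count tfa, at 16527 FPKM in this library and at 0 in every DMSO library. Taken without tfa, the mean lay below those of DMSO males and the sum within the range of DMSO females. The part of these markers in the components' values was not tested. Leaving male estradiol replicate 2 out, 7 components passed the threshold in males, where 24.5% of all genes did. Of these sesn2 and rragca rose and akt2l, ddit4, foxo1a, pik3r1 and sesn1 fell, with ddit4 at -3.14 (SE 0.86, limma adjusted p = 0.0233) and foxo1a at -3.64 (SE 0.95, 0.0191). In the male estradiol libraries left, foxo1a is listed at 0.177 FPKM and at an exact 0, which may be a failed estimate. In females 5 then fell (among them ddit4, deptor, pik3r1 and sgk2b), where 7.86% of all genes passed; the fit estimates the spread from all groups. For the averaged effect 14 passed, 3 up and 11 down, where 32.5% of all genes did. The 2 male estradiol libraries left are both oocyte-rich. Leaving out the 4 oocyte-rich libraries instead, ddit4 and sesn2 rose in males, where 8.5% of all genes passed, ddit4 fell in females (5.15%), and for the averaged effect sesn2 rose and rps6kb1b fell (8.37%).

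Other genes of the pathway, in lists chosen with earlier results of these data known, held further changes. Their median averaged log2 changes were -0.62 for ligands and adaptors, -0.15 for lipid and AKT phosphatases, 0.44 for mTOR partners and nutrient sensing, -0.31 for mTORC1 substrates and translation, 0.44 for AMPK and 1.05 for the ATF4 list, against 0.05 over all genes. In the list of ligands and adaptors, 0 rose and 2 fell among 12 genes tested in males (0.881% and 2.91% of all genes), with a median log2 change of -0.39 (0.21 over all genes), and 0 rose and 2 fell for the averaged effect (4.5% and 7.23%). In females 0 were called, with 7 unadjusted p under 0.05. Both genes called were for binding proteins of insulin-like growth factors. igfbp2a stood at 333, 265 and 236 FPKM in DMSO males, 22.5, 39.8 and 67.1 in estradiol males, 111, 78.3 and 137 in DMSO females and 17.2, 57.6 and 57.2 in estradiol females, without overlap in either sex. Its change in males was -2.78 (SE 0.53, limma adjusted p = 0.0135) and averaged -2.11 (SE 0.37, 0.00575). igfbp2b stood at 46.4, 22.2 and 25.0 FPKM, then 4.22, 1.96 and 5.67, then 18.4, 6.99 and 16.1, and 0, 5.13 and 5.46, also without overlap. It fell by 2.71 in males (SE 0.68, limma adjusted p = 0.0487) and by 2.36 averaged (SE 0.48, 0.0114). The exact 0 of igfbp2b in female estradiol replicate 1, which enters the averaged change, may be a failed estimate. igfbp1a and igfbp1b, also of binding proteins and named after their values were seen, had the list's largest changes in females without passing the test. igfbp1a stood at 37.8, 46.4 and 40.6 FPKM in DMSO females and 411, 208 and 513 in estradiol females (log2 change 3.06, SE 1.38, limma adjusted p = 0.254). igfbp1b stood at 11.2, 35.6 and 8.08, then 606, 120.6 and 132 FPKM (3.75, SE 1.24, 0.124). Neither pair of groups overlapped, while the male groups of both genes did.

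The averaged fall of igfbp2a lost its call in 1 of 22 alternatives, the oocyte covariate (change -1.56, limma adjusted p = 0.0876). Its male call held in 17 of 23 alternatives and ended with quantile normalization (0.0535), the oocyte covariate (0.145), the sum scaling (0.0782), or without male DMSO replicate 1 or 2 (0.0814 and 0.0595) or male estradiol replicate 1 (0.0513). The averaged fall of igfbp2b ended with the oocyte covariate (-1.87, 0.113), without the intestine-rich libraries (-2.52, 0.0722) and with scaling to the sum without the 10 highest genes (-1.91, 0.0570). Its male call held in 8 of 23 alternatives. It ended without male DMSO replicate 1, 2 or 3 (0.198, 0.117 and 0.109), male estradiol replicate 1 or 3 (0.117 and 0.0702), female DMSO replicate 1, 2 or 3 (0.0704, 0.0589 and 0.0688), as well as without female estradiol replicate 3 (0.0522). It also ended with the oocyte covariate (limma adjusted p = 0.269), a pseudocount of 0.1 (0.1565), the sum scaling (0.104), no filter (0.0796) or the replicate block (0.0666). Without the intestine-rich libraries it ended too, at a change of -2.71.

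Among mTORC1 substrates and translation genes, 0 of 12 rose and 2 fell in females (0.49% and 2.24% of all genes), and 0 rose and 3 fell for the averaged effect (4.5% and 7.23%). The 4E-BP gene eif4ebp3, whose product blocks the cap-binding factor eIF4E until mTORC1 phosphorylates it, stood at 95.2, 79.9 and 19.6 FPKM in DMSO males and 22.1, 15.4 and 34.2 in estradiol males. In females it stood at 1493, 791 and 1219.6 under DMSO and at 139, 109.6 and 134 under estradiol. Females lay above males without overlap under either treatment, and estradiol females lay below DMSO females. Females against males under DMSO gave a log2 difference of 4.38 (SE 0.56, limma adjusted p = 0.00211), and estradiol in females -3.14 (SE 0.56, 0.0148), comparisons that share the female DMSO libraries. The change in males was -1.20 (0.193), the averaged change -2.17 (SE 0.40, 0.00652) and the sexes' difference -1.95 (0.399).

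For eif4ebp3 the sex difference under DMSO was 4.49 without the 2 intestine-rich libraries, where 1 female DMSO library is left (limma adjusted p = 0.138), and the averaged fall was then -2.23 (0.0634). Both calls held in every other alternative. The call in females held in 18 of 23 alternatives and ended without the 2 intestine-rich libraries (-3.25, 0.292), without the oocyte-rich ones (-3.35, 0.0558), with the sum scaling (-2.79, 0.0522), without female DMSO replicate 1 (0.0785) and without female estradiol replicate 2 (0.0544).

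eef2k, the kinase that slows translation elongation and is inhibited by S6 kinase, stood at 39.7, 31.7 and 22.6 FPKM in DMSO males, 3.00, 32.3 and 7.49 in estradiol males, 60.6, 44.6 and 51.4 in DMSO females and 2.45, 6.52 and 6.11 in estradiol females. The female groups did not overlap, and male estradiol replicate 2 lay within DMSO males. The fall was 3.21 in females (log2 change -3.21, SE 0.64, limma adjusted p = 0.0251) and the averaged change was -2.41 (SE 0.45, 0.00753). The averaged call ended with the oocyte covariate (-1.47, 0.0970) and without the intestine-rich libraries (-2.40, 0.0836). The female call held in 14 of 23 alternatives and ended without any 1 of the female DMSO replicates 1 to 3 (0.102, 0.0712 and 0.0605) or female estradiol replicates 1 to 3 (0.0727, 0.0534 and 0.0529). It also ended with quantile normalization (limma adjusted p = 0.058) or the sum scaling (0.055), and without the intestine-rich libraries, at a change of -3.20. eif4ebp3l, a further 4E-BP gene, stood at 85.4 to 121 FPKM in DMSO males, 41.7, 117 and 24.2 in estradiol males, 138 to 210.2 in DMSO females and 83.6, 23.4 and 42.2 in estradiol females, with an averaged change of -1.54 (SE 0.41, 0.0342). Its call held in 9 of 22 alternatives and ended without male DMSO replicate 1, 2 or 3 (0.0902, 0.0777 and 0.0601), male estradiol replicate 1 or 3 (0.0653 and 0.0728), female DMSO replicate 1, 2 or 3 (0.0636, 0.0691 and 0.0774), as well as without female estradiol replicate 3 (0.0604).

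**Figure D5:**
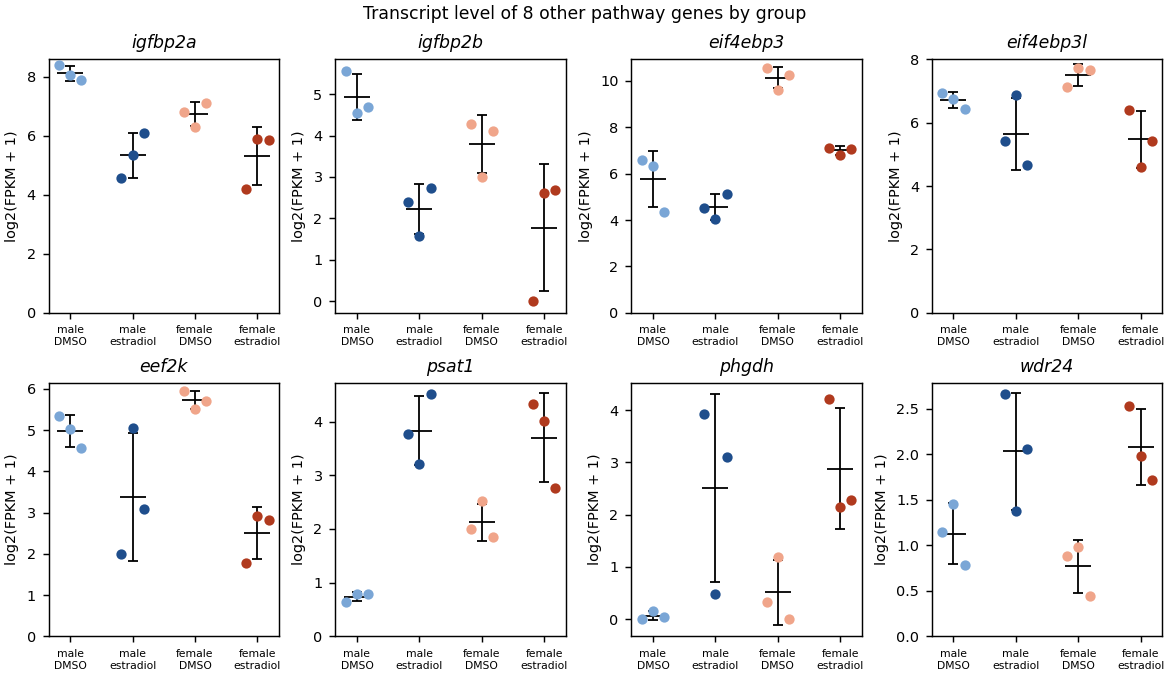
Level of 8 other pathway genes as log2(FPKM + 1) by group, with a point per library, a line at the mean of 3 libraries and bars of 1 SD. igfbp2a and igfbp2b are lower under estradiol in both sexes, psat1 is higher in both, and eif4ebp3 is highest in DMSO females (791 to 1493 FPKM).

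In the list of genes known to respond to the stress factor ATF4, 1 rose and 0 fell among 9 in males (0.881% and 2.91% of all genes), 0 and 0 were called in females with 2 unadjusted p under 0.05, and 2 rose and 0 fell for the averaged effect (4.5% and 7.23%). psat1, of serine synthesis, stood at 0.554, 0.727 and 0.726 FPKM in DMSO males, 12.7, 8.28 and 21.7 in estradiol males, 2.98, 4.71 and 2.62 in DMSO females and 19.1, 15.1 and 5.80 in estradiol females. The groups did not overlap in either sex. It rose by 3.09 in males (SE 0.46, limma adjusted p = 0.00366) and by 2.34 averaged (SE 0.32, 0.00116), and both calls held in all 23 and 22 alternatives. phgdh, which catalyses the first step of serine synthesis, stood at 0, 0.119 and 0.0344 FPKM in DMSO males, 14.2, 0.397 and 7.59 in estradiol males, 0.263, 1.30 and 0 in DMSO females and 17.6, 3.45 and 3.83 in estradiol females. Its exact zeros in male DMSO replicate 1 and female DMSO replicate 3 may be failed estimates. Its highest values lay in the oocyte-rich replicates numbered 1, and its averaged change of 2.40 (SE 0.55, 0.0204) was 1.03 with the oocyte level as a covariate (0.238). That call also ended without the intestine-rich libraries (2.66, 0.0992), male DMSO replicate 1 (0.0547), male estradiol replicate 3 (0.0506) or female DMSO replicate 1 (0.0528).

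Among further partners of mTOR and the nutrient sensors, 1 of 12 rose for the averaged effect and 0 fell (4.5% and 7.23% of all genes). This was wdr24, of the GATOR2 complex that opposes GATOR1, at 0.726 to 1.73 FPKM in DMSO males, 5.32, 1.59 and 3.17 in estradiol males, 0.355 to 0.974 in DMSO females and 2.29 to 4.79 in estradiol females. Only the female groups did not overlap. Its averaged change was 1.11 (SE 0.27, limma adjusted p = 0.0265), and 0.68 with the oocyte covariate (0.296) and 0.73 without the oocyte-rich libraries (0.149). The call also ended without the intestine-rich libraries (1.27, 0.117), male DMSO replicate 1 or 3 (0.0671 and 0.0626), male estradiol replicate 3 (0.0539) or female DMSO replicate 1 or 3 (0.0595 and 0.0680). In the lists of lipid and AKT phosphatases (4 genes) and of AMPK subunits and activators (9 genes), limma called 0 in either sex, with 0 unadjusted p under 0.05 in males and 1, an AMPK gene, in females.

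The 9 components below the filter were pdpk1a (at most 1.5 FPKM), akt3a (0.805), pik3cd (1.58), pik3r3b (1.60), foxo1b (0.476), rragd (0.0759), tfeb (1.19), igf1ra and igf1rb. No more than 2 libraries reached 1 FPKM for any of them, and some are listed at 0 in part of the libraries. Under RefSeq synonyms, the row gatsl2 is castor2, of a gene family whose products bind GATOR2, and ran from 2.16 to 8.52 FPKM. The row zgc:56306 is irs2a, an insulin receptor adaptor gene, and ran from 0.448 FPKM in male estradiol replicate 1 to 15.3 in replicate 2. Neither was called in any comparison, and both lie outside the symbols used to choose the components.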

How the data were processed

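Per the submitters' processing notes, the tools were cutadapt, TopHat2 2.0.11 and Cufflinks 2.2.1, and the build was danRer7; the annotation is not given in the sources used here. The libraries were directional, per the labels' protocols. The deposited table holds FPKM values, a unit inferred from the values. Whole fragments could not be recovered (at most 2.23% of 628 low genes fell in a bin 0.01 wide on the log2 scale), so no counting error is given.

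Genes with at least 1 FPKM in 3 of 12 libraries were fitted as log2(FPKM + 1) with limma 3.58.1 in R 4.3.3 (4 group means, eBayes with trend, 6 contrasts, Benjamini-Hochberg adjustment). A pseudocount of 1 understates changes of low genes. In simulated data for the male contrast on 9190 genes (5 runs), 3.6, 45.2, 74 and 89.2% of genes changed by 1, 2, 3 and 4 on the log2 scale were recovered, with 3.07% false calls. The simulated noise was independent between genes, with the same spread in every group. In the data the median log2 range within a group, over all genes, was 0.557 in DMSO males and 1.28 in estradiol males. For the components it was 0.877 and 1.09. A range over 1 was seen for 35% of components in DMSO males (17.63% of all genes) and 62.5% in estradiol males (63.97%). The simulated rates may therefore not hold for the data. Figures were drawn with Python 3.11.15 and matplotlib 3.10.9. Of the 49 components 48 carry a current RefSeq symbol (assembly GRCz12tu), and gsk3b matched a synonym; the symbol rheb is also a synonym of rhebl1, so that row is ambiguous. Paralogs such as akt2 and akt2l may share reads. Statistics are given for components past the threshold in a contrast, for the 4 with the smallest p in each, and for up to 4 genes past it in each other list. Results for 2 of the 49 components, which stay in the counts, are not reported here. Members and lists were chosen with earlier results of these data known. Alternatives changed the pseudocount, filter, scaling, block, covariate or libraries.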

Additional observations from a re-analysis of the deposited data

How the results depend on the processing

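The count of components past the threshold was 4 for the averaged effect. It was 1 with no filter, 1 after quantile normalization, 2 with the replicate block, 0 with the oocyte level as a covariate, 2 leaving out the 4 oocyte-rich libraries, 0 leaving out the 2 intestine-rich ones and 1 with the sum scaling. It ran from 0 to 14 when 1 library was left out: 0 without male DMSO replicate 1 or 2 or female DMSO replicate 1 or 3, 1 without male DMSO replicate 3, 2 without male estradiol replicate 1 or 3 or female estradiol replicate 1, and 14 without male estradiol replicate 2. In males the count of 1 became 0 with no filter, quantile normalization, the replicate block, a fit of the male groups alone, the oocyte covariate or without the intestine-rich libraries. It became 2 with median-of-ratios scaling or without the oocyte-rich libraries, and 0 to 7 with 1 library left out. In females the count of 0 became 2 with a filter of 5 FPKM or a fit of the female groups alone and 1 without the oocyte-rich libraries, and it ran from 0 to 5 with 1 library left out (2 without male estradiol replicate 1, 5 without replicate 2). Females against males under DMSO gave 0 components, but 1 in a fit of those groups alone or without the oocyte-rich libraries. Without the latter the sexes under estradiol gave 2 in place of 0 and the interaction 3 in place of 0. The causes of these moves were not tested. Of the 38 gene results named by the rule, 38 kept their direction in every alternative run. Outside the rule, ddit4 in males turned from -1.26 to 2.49 without the oocyte-rich libraries. Of the 19 past the threshold among them 2, both of psat1, kept their call in all. With the replicate block the sesn2 calls ended (adjusted p = 0.0616 in males and 0.0522 averaged), as did those of pik3r1 (0.05004) and, in males, igfbp2b (0.0666). The labels do not say whether the replicate numbers pair libraries. Deviations of same-numbered libraries correlated by -0.433 to 0.573, over 0.1 in 4 of 18 pairs, and 1 of 12 libraries correlated best with its own number. Between estradiol males and estradiol females the correlation was 0.494 for replicate 1 and 0.573 for replicate 2. These values cannot tell whether a number marks a shared fish, batch or day. The unknown depth limits what can be said of components near 1 FPKM.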
